A study of Schizosaccharomyces pombe with 2 samples.

Results

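The pheromone signalling cascade of the fission yeast Schizosaccharomyces pombe carries the mating signal from the cell surface to transcription. It is described here by 10 genes: gpa1, rgs1, ras1, ste6, ste4, byr2, byr1, spk1, ste11 and ste7. They were chosen by name, as the G protein, Ras and MAP kinase genes of the pathway with its transcription regulator, out of 2896 named S. pombe genes with a signal on the arrays. Each of the 10 had 1 probe set, with a suffix of probes made for a single gene and a signal above background in both arrays. The platform also names 6 probe sets of another yeast with member symbols, all 6 at 0 in both arrays, and none of these was used.

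Messenger RNA was measured in strain ST3479 (SD5), whose genotype label gives it as subtelomere-deleted, and in the wild-type strain JP1225. Both strains carry the mating type h-, and the labels place both in exponential growth at 32 °C in the rich liquid medium YES. The labels do not say which chromosome ends were removed in SD5. There was 1 array per strain, so no replicate error exists, no test was made, and every difference below describes these 2 arrays.

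In mating, the peptide pheromone of one mating type binds a receptor on cells of the other type. The receptor acts through the G protein alpha subunit Gpa1, and Gpa1 and the small GTPase Ras1 together switch on a chain of kinases, Byr2, Byr1 and Spk1. Spk1 is the MAP kinase of the chain, and Ste11 is the transcription factor that turns on mating genes. In rich medium nutrient signals hold Ste11 down, so growing cells are not in the state in which the cascade is known to act. Cells of a single mating type, as in both cultures here, also lack a partner.

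Genes next to chromosome ends served to check the strain labels. The gene nhe1, which encodes a sodium/proton antiporter, had a signal of 17.3 in SD5 and 2611 in the wild-type, and galactokinase gene gal1 had 11.5 in SD5 and 1404 in the wild-type. The signals of gal7, gal10, dak2 and tlh2 were also below background in SD5. In the wild-type gal7 had 536, gal10 had 212 and dak2 had 330. The probe sets of tlh2 had 108, 104, 40.3 and 15.5 in the wild-type, the last below background there too. The mating-type genes themselves had no named probe set, so the h- label was not checked. Background was taken from 79 control and reporter probe sets that match no fission yeast gene, at their 95th percentile, and was 26.6 in SD5 and 17.7 in the wild-type. The median signal of 4999 S. pombe probe sets was 998 in SD5 and 1168 in the wild-type. All log2 ratios, SD5 over wild-type, were therefore centred on the median of the 4847 probe sets above background in both arrays, which lay at -0.20, and each ratio below is relative to that shift. The 3′ to 5′ signal ratio of the actin control, a measure of RNA and label quality, was 2.33 in SD5 and 2.18 in the wild-type.

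None of the 10 cascade genes differed by 2-fold between the strains. The median log2 ratio of the 10 was 0.00, as was that of the 2851 named genes measured in both arrays, and 5 of the 10 lay below 0 and 5 above. At a smaller limit, a log2 ratio of 0.32 in either direction, 1 gene, ste7, was lower in SD5 and none was higher. The count of lower genes was 4 without centring, 3 with centring on hybridisation controls and 0 with a raised background. The share of all probe sets lower by this limit moved too, to 15.5%, 4.08% and 1.53% in these 3 settings. With the reported centring and background, 2.71% of all probe sets with a ratio were lower by this limit and 1.71% higher. At least 2-fold lower were 0.815%, and at least 2-fold higher 0.0612%. These shares include probe sets without a gene name and bounds. Of the 2851 named genes measured in both arrays, 40 were lower by the limit of 0.32 and 48 higher, 0 were at least 2-fold lower and 1 was at least 2-fold higher. With 10 genes, 1 is the smallest count above 0, and nothing is read from it.

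In order of their ratios, the lowest of the 10 were ste7 (-0.50), gpa1 (-0.29), ste6 (-0.27) and byr2 (-0.22). The widest gap between neighbours in this order, 0.21, set ste7 apart from gpa1, and the next, 0.20, lay between byr2 and byr1. The other 6 ran from -0.02 for byr1 to 0.16 for ste4. The 4 lowest were among the lowest 5% of named genes, a limit of -0.21 that was set after the values were seen, and no cascade gene was among the highest 5%. The interquartile range of the log2 ratios was 0.29 over the 10 genes, against 0.13 over all named genes. With 1 array per strain this describes the pair of arrays and cannot show that the cascade varies more than other genes.

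**Figure D1:**
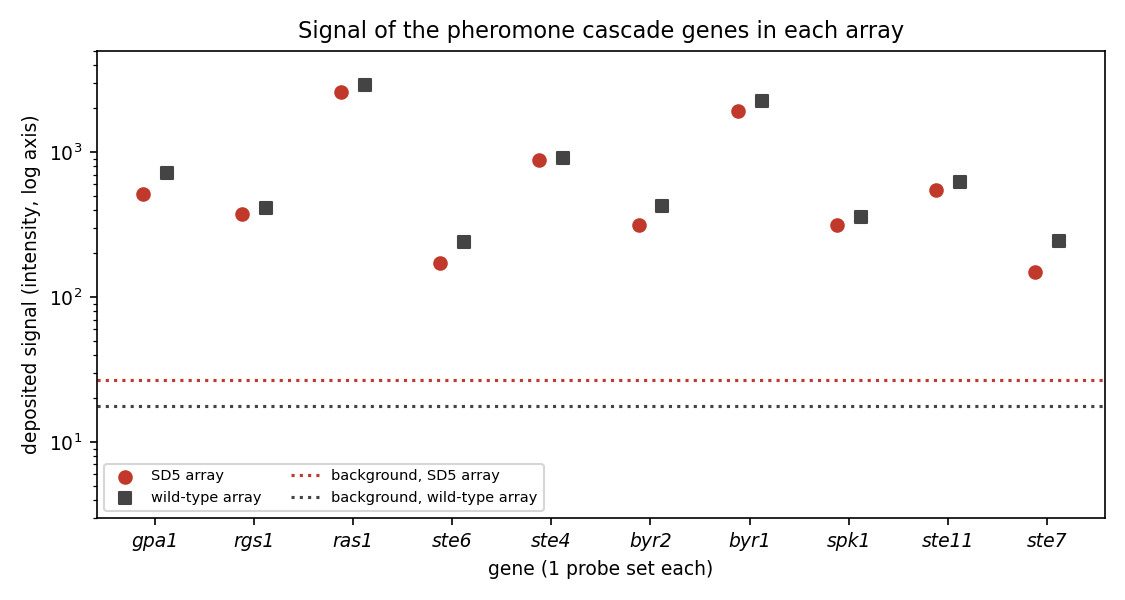
Deposited signal (intensity, log axis) of the 10 genes in the SD5 array (circles) and the wild-type array (squares), with the background of each array as dotted lines. Every gene lies above background in both arrays and has a smaller deposited signal in SD5, before the shift of all probe sets is removed; heights of different genes are not comparable, since each probe set has its own response.

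At the head of the cascade, the G protein gene had the lower ratio and its attenuator did not. The alpha subunit gene gpa1 (SPOM_SPBC24C6.06) had a signal of 511 in SD5 and 717 in the wild-type, a log2 ratio of -0.29, or 1.22-fold lower in SD5. Of the 2851 named genes, 59 had a lower ratio. The gene rgs1 (SPOM_SPAC22F3.12C) encodes a regulator of G protein signalling that damps the response to pheromone. It had 372 in SD5 and 411 in the wild-type, a log2 ratio of 0.06. The log2 ratio of gpa1 was 0.34 below that of rgs1, a difference that no centring of the arrays can alter.

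The Ras step also had a gap between its members, but it depended more on the processing. The ratio of ste6 minus that of ras1 was -0.30, and -0.19 after quantile normalization and -0.20 with a pseudocount. Its GTPase gene ras1 (SPOM_SPAC17H9.09C) had 2577 in SD5 and 2908 in the wild-type, a log2 ratio of 0.03. The gene of its activator, the guanine nucleotide exchange factor ste6 (SPOM_SPCC1442.01), which serves Ras1 in mating, had 172 in SD5 and 239 in the wild-type. Its log2 ratio was -0.27, or 1.21-fold lower in SD5, and 71 named genes were lower still. The other exchange factor of Ras1, efc25, which serves it in cell shape, had a ratio of -0.24, with 778 in SD5 and 1057 in the wild-type. The GTPase-activating gene gap1, which turns Ras1 off, had a ratio of -0.07.

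Within the kinase module, byr2 had the lowest ratio and its adaptor ste4 the highest of the 10. The adaptor protein Ste4 binds Byr2 and is needed for its activity. Its gene (SPOM_SPAC1565.04C) had 881 in SD5 and 906 in the wild-type, a log2 ratio of 0.16, and 200 named genes had a higher one. The MAP kinase kinase kinase gene byr2 (SPOM_SPBC1D7.05) had 316 in SD5 and 423 in the wild-type. Its log2 ratio was -0.22, or 1.16-fold lower in SD5, and lay 0.38 below that of ste4. The genes of the kinases after Byr2 had centred ratios near 0: byr1 (SPOM_SPAC1D4.13), the MAP kinase kinase gene, had 1931 in SD5 and 2255 in the wild-type (-0.02). The MAP kinase gene spk1 (SPOM_SPAC31G5.09C) had 315 in SD5 and 354 in the wild-type (0.03).

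At the output, the transcription factor gene had a ratio near 0 and ste7 had the lowest ratio of the 10. The gene ste11 (SPOM_SPBC32C12.02) encodes the HMG-box factor that drives mating and early meiotic genes, and its own transcription rises on nitrogen starvation. It had 545 in SD5 and 617 in the wild-type, a log2 ratio of 0.02, with 1704 named genes lower and 1146 higher. The gene ste7 (SPOM_SPAC23E2.03C) is needed for conjugation and acts on the entry into meiosis. It had 150 in SD5 and 244 in the wild-type, a log2 ratio of -0.50, or 1.41-fold lower in SD5. Only 11 of the 2851 named genes had a lower ratio, so ste7 was the 12th from the bottom, between bqt2 (-0.54) and epe1 (-0.49).

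**Figure D2:**
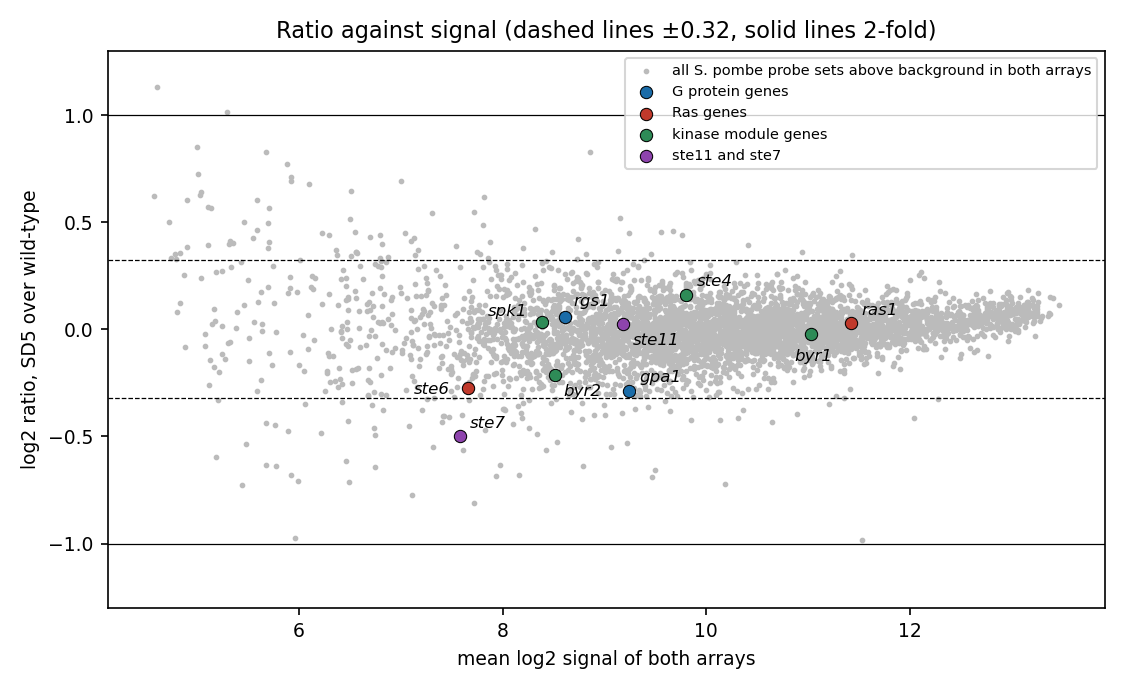
Log2 ratio of SD5 over wild-type after centring against the mean log2 signal of both arrays, for all S. pombe probe sets above background in both arrays (grey) and the 10 cascade genes (coloured by role). Dashed lines mark the limit of 0.32 and solid lines 2-fold, and 6 probe sets lie below the plotted range; ste7 alone of the 10 lies outside the dashed lines, on the dimmer side where the grey points spread wider.

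The spread of ratios grew as signals got dimmer, and ste7 and ste6 were the dimmest of the 10 relative to background. Among the 200 probe sets closest in signal, the robust SD of the log2 ratio was 0.16 for ste7, 0.17 for ste6, 0.13 for gpa1 and 0.14 for byr2. It was 0.08 for both of the brightest genes, ras1 and byr1, and 0.10 for ste4. These values measure how far probe sets of like signal scattered in the same 2 arrays and are not replicate errors. Signals ranged from 5.62 to 96.9 times background in SD5 and from 13.5 to 164 times background in the wild-type, the lowest multiple in SD5 being that of ste7. Background came from probe sets that match no fission yeast gene. The receptor gene of h+ cells, map3, had 193 in SD5 and 200 in the wild-type. That is above the SD5 signals of ste7 (150) and ste6 (172), so passing background does not by itself show transcript of a gene.

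The genes nearest to ste7 in the plane of mean log2 signal and log2 ratio were clr4, a histone methyltransferase gene (150 in SD5 and 254 in the wild-type, -0.56), the checkpoint kinase gene chk1 (143 in SD5 and 219 in the wild-type, -0.41) and mug146 (-0.40). Those nearest to ste11 were ftp105 (0.01), chz1 (0.02) and nup120 (0.00). With 2 arrays this likeness rests on a pair of signals for each gene and says only that other genes took the same place in the plot.

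Ratios also moved slightly with gene length over the whole array. Across the 2851 named genes the log2 ratio had a Spearman correlation of -0.20 with gene length in the reference assembly ASM294v3 and 0.16 with mean log2 signal, and genes share their libraries, so these are descriptions. The median ratio was 0.04 in the shortest 25% of named genes, which held ras1 and ste4, and -0.02 in the longest 25%, which held ste6 and ste11. The genes ste7, gpa1 and byr2 lay in the 25% just below the longest, whose median was also -0.02, together with rgs1 and spk1. Over the 10 cascade genes alone the Spearman correlation was -0.59 with length and 0.42 with mean log2 signal. The part of length, and of the 3′ to 5′ difference of the actin control, in the ratios of the cascade was not tested.

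All 10 genes lay over 100 protein-coding genes from any chromosome end of the reference assembly. The nearest to an end was ste7, the 180th protein-coding gene from the left end of chromosome I, and the others lay between 220 and 1063 genes from an end, on chromosomes I, II and III. The nearest named genes with a ratio on either side of ste7, lsd2 and, 2 genes away, uba3, had ratios of -0.01 and -0.12. Those beside gpa1, sec28 and cdc14, had -0.02 and 0.02, and those beside byr2, mrpl7 and mlo3, had -0.08 and 0.08. Around ste6, ero12, 3 genes away, had 0.01 and pre8, 5 genes away, had 0.05. None of these 8 neighbours had a ratio as low as the cascade gene it was listed for. The 4 cascade genes were picked as the lowest, so this outcome was nearly certain beforehand, and nothing is read from it. Over all 20 neighbours of the 10 genes the median was 0.00, and they ran from rad15, beside byr1, at -0.28 to eta2, a dim gene beside spk1 (87.1 in SD5 and 77.7 in the wild-type), at 0.37.

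Fission yeast has 3 MAP kinase cascades of like design, and the kinases of the other two had log2 ratios between -0.12 and 0.10. At the top, byr2 (-0.22) was lower than mkh1 of the cell integrity cascade (0.02; 352 in SD5 and 400 in the wild-type). It was also lower than wis4 (-0.09) and win1 (-0.12) of the stress cascade, but by less than the robust SD at its signal, 0.14. In the middle, byr1 (-0.02) lay between pek1 (-0.04) and wis1 (0.10). At the end, spk1 (0.03) had a higher ratio than sty1 (0.00) and pmk1 (-0.11), by less than the robust SD at its signal, 0.15. The cell integrity list of 6 genes ran from -0.11 to 0.05 and the stress list of 7 genes from -0.12 to 0.10. No gene of either list reached the limit of 0.32.

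**Figure D3:**
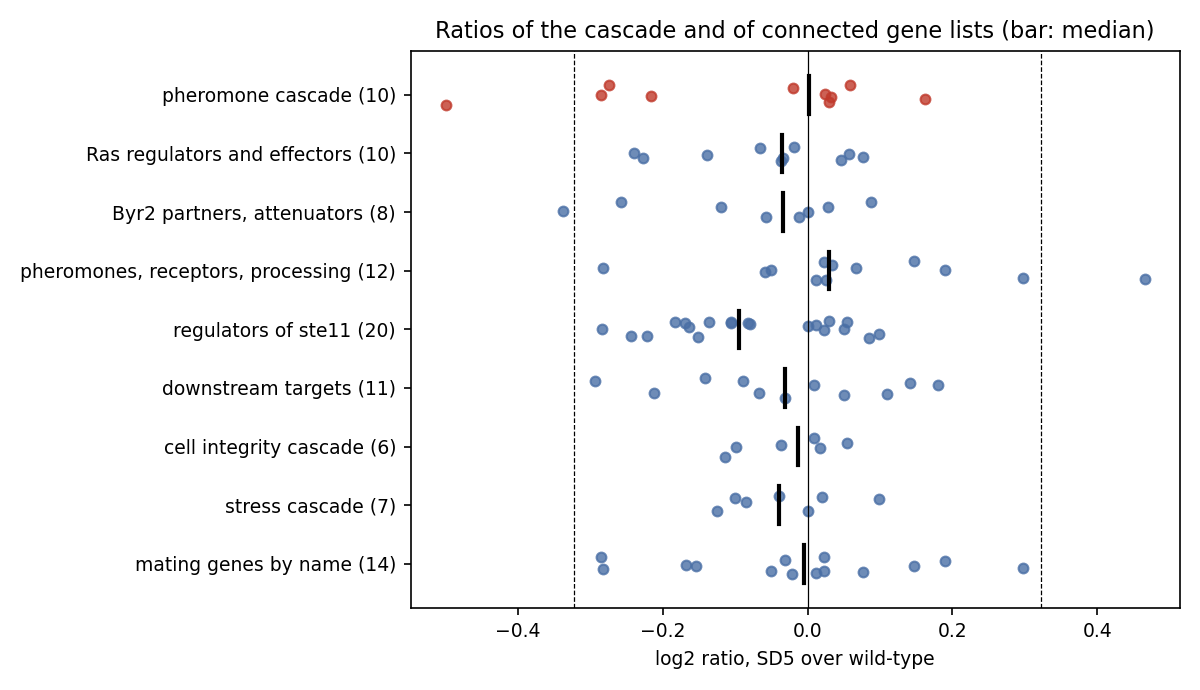
Log2 ratios of SD5 over wild-type for the 10 cascade genes (top row) and for 8 lists of connected genes, 1 point per gene with the number of genes in brackets; black bars are medians and dashed lines mark the limit of 0.32. Medians lie between -0.09 and 0.03, and 3 points lie outside the dashed lines, ste7 in the cascade, pat1 and mfm1.

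Upstream of the cascade, the genes of pheromones, receptors and their processing, of both mating types, had a median of 0.03 over 12 of 14 listed genes. Of the 12, 9 lay above 0, against 1443 of 2851 named genes, but 7 lay within 0.1 of 0. The 9 include map2 (0.19) and map3 (0.15), the P-factor gene and the receptor gene of h+ cells. Both cultures were h-, so the ratios of these genes are no measure of the pheromone step in these cells. The median was -0.02 with centring on hybridisation controls and ran from -0.17 to 0.11 over the 8 alternative settings, so its side of 0 depends on the processing. The P-factor receptor gene mam2, the one h- cells use, had 251 in SD5 and 235 in the wild-type, a log2 ratio of 0.30. The gene mam1, which exports the M-factor pheromone, had 302 in SD5 and 423 in the wild-type (-0.28), the lowest of the list. Of the 12 genes 1 passed the limit of 0.32, the dim M-factor gene mfm1 at 0.47. Its probe sets disagreed: the first had 71.7 in SD5 and 51.2 in the wild-type (0.69), and the other, whose suffix marks probes that can match several genes, had 72.3 in SD5 and 70.4 in the wild-type (0.24). The brightest M-factor gene, mfm2, had 2965 in SD5 and 3260 in the wild-type (0.07).

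Around Ras1 and the kinases the ratios were small. The 10 Ras regulators and effectors had a median of -0.04, with 7 below 0 and none past the limit, between efc25 and ral2 (0.08). The scaffold gene scd2, whose protein joins Ras1 to the GTPase Cdc42, had 276 in SD5 and 372 in the wild-type (-0.23), while cdc42 itself stood at 0.06. The 8 genes listed as Byr2 partners and attenuators of MAP kinase cascades had a median of -0.03. This list is wider than the pheromone cascade, as some of its phosphatase genes act on the other cascades. Among them pat1, listed also as ran1, passed the limit of 0.32: the gene of this kinase, which holds back meiosis, had 71.3 in SD5 and 104 in the wild-type (-0.34), where the robust SD at its signal was 0.29. The highest of that list was pyp1 (0.09), a phosphatase gene whose product acts on Sty1 of the stress cascade.

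No regulator of ste11 reached the limit of 0.32 in either direction. The 20 of 21 listed genes with a ratio had a median of -0.09, with 12 (60%) below 0, against 49.4% of all named genes. The lowest was cgs1, the regulatory subunit gene of protein kinase A, with 548 in SD5 and 769 in the wild-type (-0.28). The highest was wis1 (0.10). The kinase gene pka1, whose product represses ste11, stood at -0.18, the TOR kinase gene tor2 at -0.17 and the activating transcription factor gene atf1 at 0.05. Its median is a description of these arrays, to be read beside the 0.00 of all named genes.

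Genes listed as downstream of the pathway had ratios on both sides of 0. The list was drawn up by name, and whether the cascade turns on each gene was not tested. It holds cyr1 (0.05), which is also listed among the regulators of ste11. The 11 of 13 listed genes with a ratio had a median of -0.03, 6 below 0 and 5 above, and none past 0.32. The master gene of meiosis, mei2, a target of Ste11, had 96.7 in SD5 and 129 in the wild-type (-0.21). The cell fusion gene fus1 had 143 in SD5 and 169 in the wild-type (-0.03). The lowest was rep1 (89.9 in SD5 and 127 in the wild-type, -0.29) and the highest mde4 (896 in SD5 and 910 in the wild-type, 0.18). The meiotic inducer gene mei3 was below background in both arrays, with 15.2 in SD5 and 14.3 in the wild-type, and gave no ratio. A list of 14 genes named ste, ral, byr, map, mam or fus had 7 below 0 and 7 above (median 0.00), from mam3 (-0.29) to mam2. It shares genes such as mam2 and fus1 with the lists above. Those lists also overlap: wis1 and sty1 are both regulators of ste11 and stress cascade genes, and atf1 is also in the cell integrity list.

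Of the 8 alternative settings of the processing, 4 could alter the order of the 10 genes: quantile and loess normalization, a pseudocount and a raised background. The others add the same amount to each ratio or leave the members as they were, so they say nothing about the order. In each of those 4 settings ste4 had the highest ratio, and gpa1, ste6, byr2 and ste7 were the lowest. The gene ste7 was the lowest of the 10 in all but the last. There the background was raised to 179 in SD5 and 224 in the wild-type, below which 10% of the fission yeast probe sets lay. The SD5 signals of ste7 and ste6 were then below it, and the ratio of ste7 became a bound of -0.24, short of the limit. Without centring all 10 ratios lay below 0, as the shift of all probe sets was then left in.

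**Figure D4:**
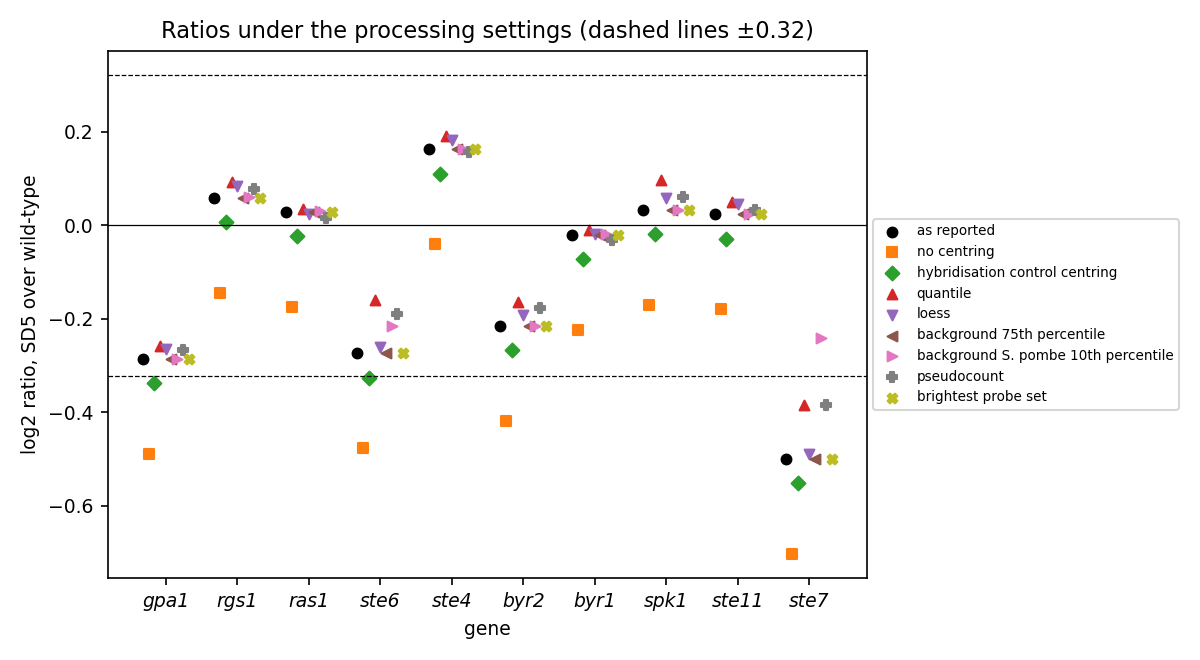
Log2 ratios of SD5 over wild-type for the 10 genes as reported (black circles) and under 8 other processing settings, with dashed lines at the limit of 0.32. The genes gpa1, ste6, byr2 and ste7 lie below the other 6 under quantile and loess normalization, the pseudocount and the raised background, the 4 settings that could alter the order; leaving out centring moves all 10 down together.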

How the data were processed

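The deposited table gives 1 linear intensity for each probe set on each array, in 10928 rows. GCOS 1.4 is named, without its role, per the submitters' processing notes. The sources used here do not give the probe summary, scaling or masking. Per the labels' protocols, polyadenylated RNA was labelled with a 3′ in vitro transcription kit, which favours 3′ ends. The 5748 rows at 0 in both arrays were left out. Probe sets were named through the platform's table and the RefSeq annotation ASM294v3; no build is named for the array, so no coordinates are printed, and no sequences were used. A chromosome's left end is where the reference's coordinates start.

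Before taking log2, signals under background were raised to it. A probe set under background in 1 array has only a bound, and in both arrays no ratio. Bounds pointing the wrong way were dropped. This left 4905 ratios. Ratios of several probe sets of a gene were averaged. Robust SDs are 1.4826 times the median absolute deviation. Of the listed genes, ste14, ste15, snf2 and far1 were not matched. The members, lists and limits were chosen with earlier results of these data known. Named were the 10 members, the lowest and highest gene and each gene past the limit of 0.32 in every list, neighbours, nearest genes, kinase counterparts and label checks. The genes gap1, scd2, cdc42, mfm2, map2, map3, pka1, tor2, atf1 and cyr1 were added outside this rule with their values known. So were mei2, fus1, mei3, bqt2 and epe1. The ratio step was tested on simulated data. Python 3.11.15, numpy 2.4.6, pandas 2.3.3 and statsmodels 0.14.6 were used.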

Additional observations from a re-analysis of the deposited data

How the results depend on the processing

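No paired analysis was possible because each strain had 1 array. With no replicates, the ratio of a gene was taken as moved when it shifted by at least the robust SD of probe sets of like signal. A median was judged against 0.13, the median of the robust SDs of the 10 members, and a count by its fold change or a change to or from 0. Without centring, the median of the 10 cascade genes was -0.20 and 4 of them were lower by at least 0.32 (log2); list medians were -0.24 for Ras regulators, -0.24 for Byr2 partners, -0.17 for pheromones and receptors, -0.30 for regulators of ste11, -0.23 for downstream targets, -0.22 for the cell integrity cascade, -0.24 for the stress cascade and -0.21 for mating genes by name. With centring on 27 hybridisation controls, whose median was -0.15, 3 cascade genes were lower by this limit. The count was 0 with a background below which 10% of fission yeast probe sets lay, where 2 of the 10 genes were under background in SD5. The sign of the ratio of ste7, the gene called, was the same in each alternative. The choice of the brightest probe set could not change it, as ste7 has 1 probe set, and both other centrings only lowered it. The ratio of ste7 ran from -0.70 to -0.24 over the 8 alternatives, the last being a bound with the raised background. The counts of all probe sets lower and higher by the limit were 133 and 84 as reported. They were 762 and 24 without centring, 200 and 58 with hybridisation controls, 89 and 181 after quantile normalization, 69 and 21 with the raised background and 101 and 114 with a pseudocount. The share lower was 2.71% as reported, 15.5% without centring, 4.08% with hybridisation controls and 1.53% with the raised background, so the whole array moved along with the cascade counts. The SD5 signals of ste7 and ste6 were 5.62 and 6.47 times background, the lowest multiples of the 10, and limit what their ratios can show.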
